A study of Equus asinus with 12 samples.

Results

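The genes described here make, store and break down glycogen, the branched glucose polymer that skeletal muscle keeps as a local fuel. They are 9 genes chosen by name: GYG1, GYS1, GBE1, UGP2, PGM1, PYGM, PHKA1, PHKG1 and STBD1. Each was taken as the locus of that name with the highest mean over the libraries, and all 9 were found among the 27084 loci of the deposited table. Levels are FPKM, fragments per kilobase of transcript scaled to the mapped fragments of the library, so that genes of different length can be set side by side. All 9 also passed the limit for testing, 1 FPKM or more in 3 or more libraries, as 12408 loci did.

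The libraries come from skeletal muscle of the Dezhou donkey (Equus asinus), a large Chinese donkey breed. Animals of 24 months from the strains Sanfen and Wutou gave longissimus dorsi, which runs along the spine, and gluteal muscle, which moves the hip. Each strain and muscle has 3 libraries, 12 in all. The design names 6 donkeys without tying any library to a donkey, so p-values measure the spread between libraries, and animals may enter more than once. The labels give no treatment, genotype or sex, and sequencing depth is unknown.

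Glycogen is started by glycogenin (GYG1), which attaches the first glucose units to itself, and is lengthened by glycogen synthase, whose muscle form is GYS1. The branching enzyme GBE1 adds side chains, which keep the polymer compact and soluble. Glucose enters as UDP-glucose, made by the pyrophosphorylase UGP2 from glucose 1-phosphate, which phosphoglucomutase 1 (PGM1) interconverts with glucose 6-phosphate. Breakdown starts with glycogen phosphorylase, whose muscle form is PYGM, and phosphorylase kinase switches that enzyme on when calcium or adrenaline signals arrive. Phosphorylase kinase has regulatory alpha and beta subunits and a catalytic gamma subunit, among others, and PHKA1 and PHKG1 encode its muscle alpha and gamma chains. STBD1 binds glycogen and is linked to its delivery to lysosomes.

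All 7 markers of skeletal muscle were present, with a summed FPKM of 25018 to 32538 per library, and the liver markers GYS2, ALB, APOA1 and TTR together stayed between 0.46 and 5.39. Libraries of 1 group were about as close to each other as to the rest (correlation across loci of 0.890 to 0.941 within groups and 0.883 to 0.942 between groups). Sanfen longissimus replicate 2 and Sanfen gluteal replicate 1 stood apart by their summed fibre type markers, although not every single marker followed. Their summed slow fibre markers reached 5652 and 7725 FPKM, against 2535 to 4694 in the other 10 libraries, and their summed fast fibre markers were 6624 and 9618, against 13073 to 20169. Of the 11 fast and 10 slow markers listed, 9 of each were found, and MYH1, MYH4 and MYH7 were not among them. The fast markers TNNT3 and PVALB averaged only 1.27 and 0.531 FPKM, although correlations with the lists below weigh each marker equally. The fast marker MYH2 went against the fast sum, with its highest value of 133 FPKM in Sanfen longissimus replicate 2. In that library the slow markers MYOZ2 (23.2 FPKM) and TNNC1 (817) were below their means of 25.0 and 843. The fast marker ACTN3 was higher there (179) than in Sanfen longissimus replicate 1 (130). In Sanfen gluteal replicate 1 the slow marker CSRP3 (388) was below its mean of 485. In bulk muscle, fewer fibres of a type and less RNA per fibre cannot be told apart.

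The breakdown enzyme was by far the most abundant transcript of the 9. PYGM (locus MSTRG.5816) averaged 1593 FPKM over the 12 libraries, above 99.9% of all loci. PGM1 followed with 214 FPKM, then PHKA1 with 54.6, GYS1 with 35.5, GYG1 with 25.6, UGP2 with 19.2, PHKG1 with 9.10, GBE1 with 8.96 and STBD1 with 6.95. In this order PYGM stood 7.43 times above PGM1 and PGM1 3.93 times above PHKA1, with no overlap of their ranges over libraries. All later neighbours overlapped, although GYS1 exceeded GYG1 in 12 of 12 libraries and PHKA1 exceeded GYS1 in 11.

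**Figure D1:**
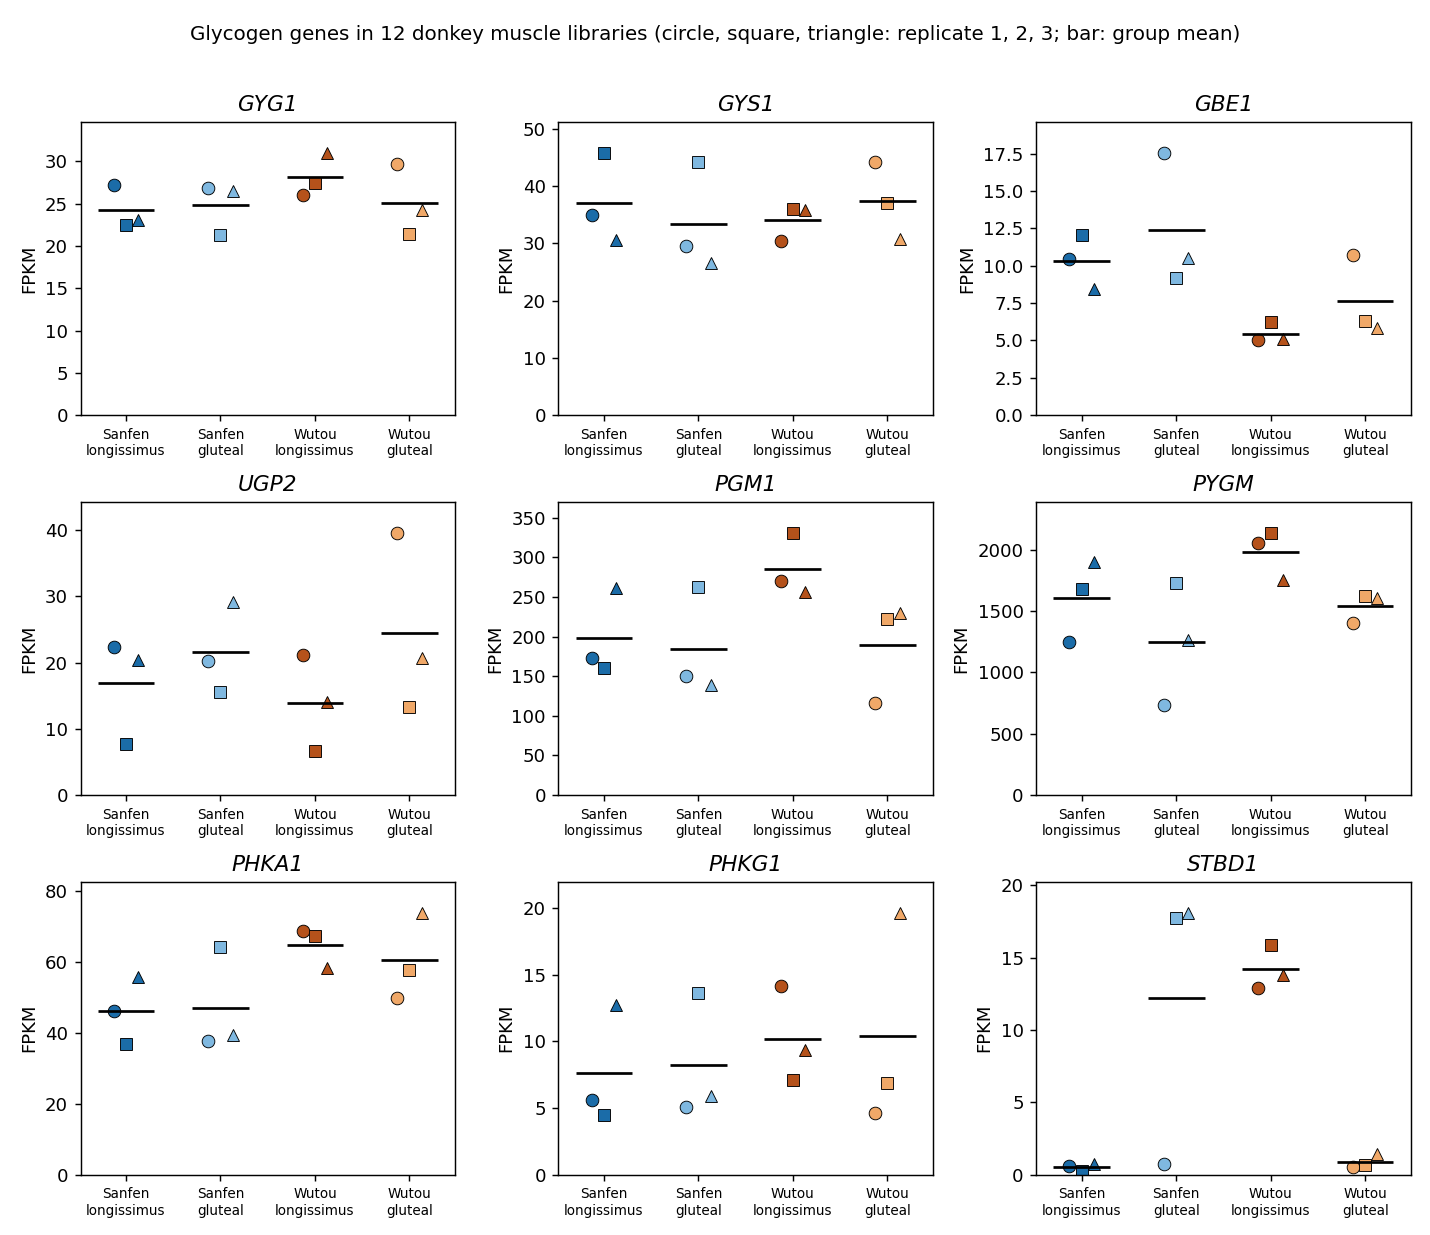
FPKM of the 9 glycogen genes (vertical axes, starting at 0, a scale for each gene) in the 4 groups of strain and muscle, with 1 symbol per library (circle, square and triangle for replicates 1, 2 and 3) and a bar at each group mean. GYG1 and GYS1 stay within a narrow band, GBE1 is lowest in Wutou longissimus, and STBD1 lies either at 12.9 to 18.1 or at 0.263 to 1.41.

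No difference of these 9 genes passed the test in any comparison. The limma test on log2(FPKM + 1), with Benjamini-Hochberg adjustment over the 12408 loci at 0.05, called 0 of 9 in each of the 7 comparisons. Among all tested loci it called 0.0242% for gluteal against longissimus muscle in Sanfen, 0% for the same in Wutou and 0% for the muscles averaged over strains. It called 0.0161% for Wutou against Sanfen in longissimus muscle, 0.00806% for the same in gluteal muscle, 0% for the strains averaged over muscles and 0.00806% for the interaction. At an unadjusted p under 0.05 the members passing were STBD1 and GBE1 alone. STBD1 passed in both muscle comparisons within a strain (1 of 9 in each, beside 3.57% of loci in Sanfen and 5.68% in Wutou), in the interaction (1 of 9, beside 2.6%) and in both strain comparisons within a muscle. GBE1 also passed in those strain comparisons (2 of 9 in each, beside 5.52% in longissimus and 4.86% in gluteal muscle) and was the 1 of 9 that passed for the strains averaged over muscles (5.97%). For the muscles averaged over strains 0 of 9 passed, beside 6.56% of loci.

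**Figure D2:**
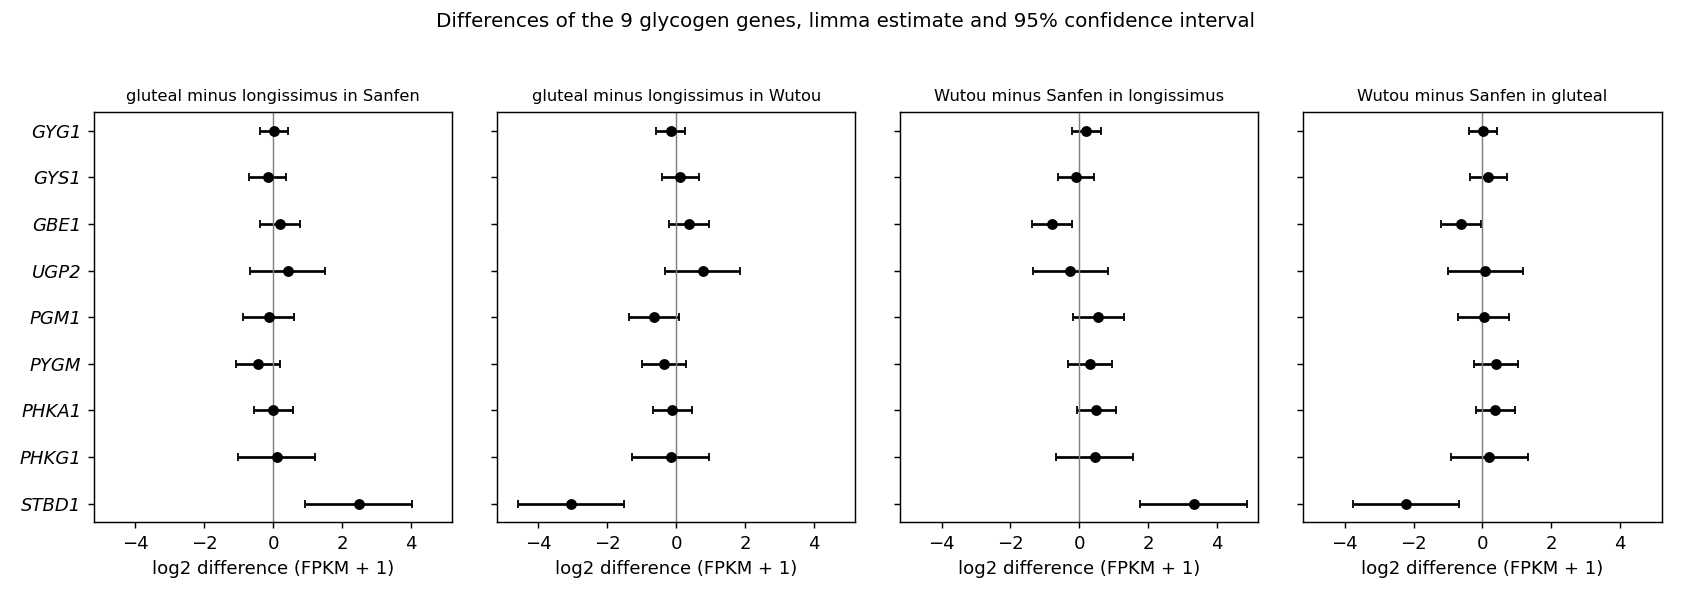
Difference of each glycogen gene on the log2(FPKM + 1) scale (horizontal axis) in the 4 comparisons within a strain or a muscle, as the limma estimate (point) with its 95% confidence interval (bar). STBD1 runs from -3.05 to 3.31 and the other 8 genes lie between -0.81 and 0.77.

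GYG1 (MSTRG.3105), the primer of the polymer, was the steadiest of the 9, with its highest library only 1.45 times its lowest. Values here and below are those of replicates 1, 2 and 3 in turn. It measured 27.2, 22.5 and 23.1 FPKM in longissimus and 26.9, 21.3 and 26.5 in gluteal muscle of Sanfen donkeys, and 26.0, 27.5 and 31.0 in longissimus and 29.7, 21.5 and 24.2 in gluteal muscle of Wutou donkeys. The groups overlapped throughout. Its difference between strains in longissimus muscle was 0.21 on the log2(FPKM + 1) scale (SE 0.19, limma adjusted p 0.881), with a 95% interval of -0.21 to 0.62. The other 3 comparisons within a strain or muscle gave -0.17 to 0.03.

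GYS1 (MSTRG.8869), which lengthens the chains, had a maximum 1.72 times its minimum. It measured 35.0, 45.7 and 30.6 FPKM in longissimus and 29.6, 44.2 and 26.6 in gluteal muscle of Sanfen donkeys, and 30.5, 36.0 and 35.8 in longissimus and 44.3, 37.1 and 30.8 in gluteal muscle of Wutou donkeys. No group stood apart: the group means ran only from 33.5 ± 9.43 (SD, n = 3) in Sanfen gluteal to 37.4 ± 6.75 (SD, n = 3) in Wutou gluteal muscle. All 4 differences within a strain or muscle were smaller than their SE of 0.24. The liver form GYS2 was listed at no more than 0.03 FPKM.

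GBE1 (MSTRG.15446), the branching enzyme, had its lower values in Wutou. It measured 10.5, 12.1 and 8.47 FPKM in longissimus and 17.5, 9.21 and 10.5 in gluteal muscle of Sanfen donkeys. In Wutou it measured 5.01, 6.22 and 5.11 FPKM in longissimus and 10.8, 6.32 and 5.81 in gluteal muscle. The longissimus libraries of the strains did not overlap, whereas in gluteal muscle Wutou replicate 1 lay within the Sanfen range.

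The mean of GBE1 in longissimus muscle was 10.3 ± 1.8 FPKM (SD, n = 3) in Sanfen and 5.45 ± 0.673 in Wutou, a ratio of 0.527. On the log2(FPKM + 1) scale this was -0.81 (SE 0.26, unadjusted p 0.0106, limma adjusted p 0.854), and the gluteal difference was -0.63 (SE 0.26, unadjusted p 0.0349, limma adjusted p 0.963). Averaged over muscles it was -0.72 (SE 0.21, 95% interval -1.18 to -0.26), ranking 73 of the 12408 loci by p (unadjusted p 0.0052, limma adjusted p 0.793, and 0.486 to 0.967 over the alternatives). The gluteal value moved to -0.38 without Sanfen gluteal replicate 1, the library with the highest GBE1 and the most slow fibre marker RNA. With each other library left out it stayed between -0.88 and -0.48, and the longissimus value stayed between -0.93 and -0.70 with any library left out. GBE1 also followed fibre type markers over the 12 libraries, with a correlation of 0.72 with the slow fibre list and -0.75 with the fast fibre list. Without the 2 libraries farthest from the median of GBE1 these were 0.48 and -0.49. The part of fibre type in the strain difference was not tested.

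Relative to glycogen synthase, the branching enzyme showed the same order of groups. The GBE1 to GYS1 ratio of FPKM was 0.280 ± 0.0177 (SD, n = 3) in Sanfen longissimus and 0.160 ± 0.0156 in Wutou longissimus muscle, with ranges of 0.264 to 0.299 and 0.143 to 0.173. In gluteal muscle it was 0.399 ± 0.192 in Sanfen and 0.201 ± 0.0377 in Wutou, and these ranges overlapped.

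UGP2 (MSTRG.2345), which makes UDP-glucose, varied 5.92 times between its lowest and highest library. It measured 22.4, 7.68 and 20.5 FPKM in longissimus and 20.2, 15.5 and 29.1 in gluteal muscle of Sanfen donkeys, and 21.1, 6.68 and 14.004 in longissimus and 39.6, 13.3 and 20.6 in gluteal muscle of Wutou donkeys. Replicate 2 was the lowest of its group in all 4 groups, an order whose share among all loci was not counted. On the log2(FPKM + 1) scale gluteal minus longissimus was 0.77 in Wutou (SE 0.50) and 0.42 in Sanfen (SE 0.50), the latter smaller than its SE. Averaged over strains it was 0.60 (SE 0.35, unadjusted p 0.119, limma adjusted p 0.791). This value was 0.37 without Sanfen longissimus replicate 2, 0.39 without Wutou longissimus replicate 2 and 0.39 without Wutou gluteal replicate 1. The groups overlapped in every comparison.

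PGM1 (MSTRG.10255), which links glycogen to glycolysis, had its highest mean in Wutou longissimus muscle. It measured 173, 160 and 262 FPKM in longissimus and 151, 262 and 139 in gluteal muscle of Sanfen donkeys, and 270, 331 and 256 in longissimus and 116, 223 and 230 in gluteal muscle of Wutou donkeys. Within Wutou the muscles did not overlap, and the gluteal mean of 190 ± 63.8 FPKM (SD, n = 3) was 0.663 times the longissimus mean of 286 ± 39.5. That difference was -0.65 on the log2(FPKM + 1) scale (SE 0.34, unadjusted p 0.0792, limma adjusted p 0.870), and ran from -0.82 to -0.33 with 1 library left out, the smallest without Wutou gluteal replicate 1. In Sanfen it was -0.13 (SE 0.34), and the difference between these muscle effects was -0.52 (SE 0.47, limma adjusted p 0.9998). Leaving out the same Wutou library made that difference -0.20, and leaving out Sanfen gluteal replicate 2 made it -0.23.

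PYGM, the enzyme that releases glucose 1-phosphate, showed the same order in Wutou. It measured 1248, 1681 and 1898 FPKM in longissimus and 736, 1730 and 1265 in gluteal muscle of Sanfen donkeys. In Wutou it was 2053, 2134 and 1751 in longissimus and 1398, 1624 and 1603 in gluteal muscle, again without overlap between the muscles. The gluteal mean of 1542 ± 125 FPKM (SD, n = 3) was 0.779 times the longissimus mean of 1979 ± 202, or -0.36 on the log2(FPKM + 1) scale (SE 0.30, unadjusted p 0.249, limma adjusted p 0.919). Of the 9 genes, PGM1, PYGM and STBD1 were the 3 that lay wholly lower in Wutou gluteal muscle, where 4.18% of all tested loci did, and 0 lay wholly higher, where 8.7% did. The lowest PYGM value, 736 FPKM, belonged to Sanfen gluteal replicate 1, the library with the highest sum of slow fibre markers. Sanfen longissimus replicate 2, also high in that sum, had 1681 FPKM. Over the 12 libraries PYGM had r = -0.47 and rho = -0.02 with the slow and r = 0.54 and rho = 0.31 with the fast fibre list. Without the 2 libraries farthest from the median of PYGM, r was 0.09 and 0.0006. The part of fibre type in the PYGM level was not tested. A further locus named PYGM (MSTRG.5817) had only 0.103 to 1.47 FPKM. The liver and brain forms PYGL and PYGB averaged 1.71 and 2.66 FPKM, so the muscle form made up nearly all phosphorylase RNA.

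The ratio of phosphorylase to synthase RNA, PYGM to GYS1, ran from 24.9 to 67.3 over the libraries with a median of 45.6. It averaged 58.5 ± 9.23 (SD, n = 3) in Wutou longissimus, 44.8 ± 14.9 in Sanfen longissimus, 42.5 ± 10.3 in Wutou gluteal and 37.2 ± 11.5 in Sanfen gluteal muscle. Wutou longissimus (48.9 to 67.3) did not overlap with Sanfen gluteal muscle (24.9 to 47.5), whereas groups of the same strain or the same muscle overlapped. The groups without overlap differ in both strain and muscle, and the share of gene ratios separated in this way was not counted.

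PHKA1 (MSTRG.6928), the muscle alpha subunit of phosphorylase kinase, had higher means in Wutou than in Sanfen in both muscles. It measured 46.3, 36.8 and 55.6 FPKM in longissimus and 37.7, 64.1 and 39.3 in gluteal muscle of Sanfen donkeys, and 68.6, 67.2 and 58.3 in longissimus and 49.7, 57.6 and 73.7 in gluteal muscle of Wutou donkeys. In longissimus muscle the strains did not overlap, with means of 46.2 ± 9.43 (SD, n = 3) in Sanfen and 64.7 ± 5.56 in Wutou. The difference was 0.49 on the log2(FPKM + 1) scale (SE 0.26, unadjusted p 0.0793, limma adjusted p 0.854) and 0.38 in gluteal muscle (SE 0.26, limma adjusted p 0.963), where the strains overlapped. The gluteal value was 0.23 without Wutou gluteal replicate 3, 0.24 without Sanfen gluteal replicate 1 and 0.62 without Sanfen gluteal replicate 2. Over the 12 libraries PHKA1 also followed fibre type markers, with a correlation of 0.64 with the fast and -0.69 with the slow fibre list. Without the 2 libraries farthest from the median of PHKA1 these were 0.14 and -0.29. The part of fibre type in the strain difference of PHKA1 was not tested. In longissimus muscle PHKA1 and STBD1 lay wholly higher in Wutou (2 of 9, beside 3.88% of tested loci) and GBE1 wholly lower (1 of 9, beside 7.92%). No member was free of overlap between the strains in gluteal muscle, where 2.19% of loci lay wholly higher in Wutou and 8.68% wholly lower. The same held between the muscles of Sanfen, where 6.27% lay wholly higher in gluteal muscle and 1.27% wholly lower.

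PHKG1 (MSTRG.4684), the catalytic gamma subunit, was less abundant than PHKA1 (median PHKA1 to PHKG1 ratio 7.05) and varied more within groups than between them. It measured 5.61, 4.49 and 12.7 FPKM in longissimus and 5.08, 13.6 and 5.88 in gluteal muscle of Sanfen donkeys, and 14.2, 7.10 and 9.37 in longissimus and 4.65, 6.85 and 19.6 in gluteal muscle of Wutou donkeys. All groups overlapped, and the group means of 7.61 to 10.4 FPKM lay closer together than the libraries of any group. Its largest difference within a strain or muscle was 0.45 on the log2(FPKM + 1) scale (SE 0.51, limma adjusted p 0.906), for Wutou against Sanfen in longissimus muscle, and ran from 0.19 to 0.85 with 1 library left out.

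The other subunits of the kinase were looked at after their values were seen. PHKB, the beta subunit (MSTRG.11085, matched through the RefSeq table from LOC106841479), averaged 36.1 FPKM with a range of 20.8 to 45.7. LOC106840865, described in the table as a partial alpha subunit of the skeletal muscle type, averaged 161 FPKM (99.98 to 228), above PHKA1 itself. LOC106848209, described as beta-like, averaged 23.4 FPKM (16.5 to 29.5). Whether these loci are pieces of PHKA1 and PHKB or separate copies cannot be told from the table, so the level of each subunit is uncertain. PHKA2 stayed at 0.53 to 1.04 FPKM, and PHKG2 appeared only in a locus merged with SRCAP.

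The 5 kinase loci had similar courses over the libraries. All 5 were lowest in Sanfen longissimus replicate 2. PHKA1, PHKG1 and LOC106848209 were highest in Wutou gluteal replicate 3. None of the 3 added loci passed the test in any comparison. The nearest was LOC106840865, at 0.62 for Wutou against Sanfen in longissimus muscle (log2 scale, SE 0.30, limma adjusted p 0.854).

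**Figure D3:**
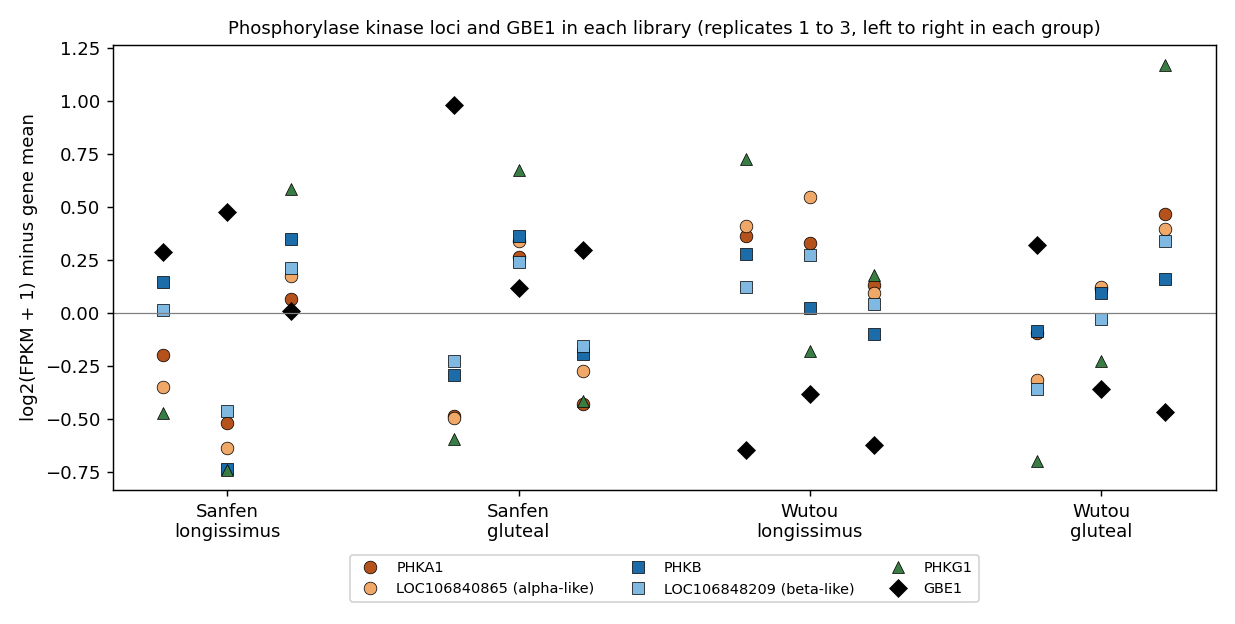
Level of 5 phosphorylase kinase loci (PHKA1, PHKB, PHKG1 and the alpha-like and beta-like loci) and of GBE1 (black diamonds) in each of the 12 libraries, as log2(FPKM + 1) minus the mean of that locus (vertical axis), by group (horizontal axis). The kinase loci are all below their means in Sanfen longissimus replicate 2 and Sanfen gluteal replicate 1, the libraries in which GBE1 is highest.

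Over the 12 libraries PHKA1 ran with PHKG1 and PGM1, and PGM1 ran with PYGM. The branching enzyme GBE1 ran against PHKA1, PHKG1, PGM1 and PYGM. These correlations are of log2(FPKM + 1) and are descriptions without a p, since libraries may share donkeys and all values of a library share its scaling. PHKA1 and PHKG1 had r = 0.81 and rho = 0.88 (r = 0.88 for deviations from the group means), and 0.661% of tested loci had an r with PHKA1 at least as far from 0. PGM1 and PYGM had r = 0.71 and rho = 0.85 (0.61 for deviations), and PGM1 and PHKA1 had r = 0.79 and rho = 0.76 (0.87 for deviations). An r with PGM1 at least as far from 0 as these was found for 3.13% and 1.02% of tested loci. PYGM and the kinase that acts on it were less close, with r = 0.68 and rho = 0.60 for PHKA1 and r = 0.50 and rho = 0.54 for PHKG1. Of the tested loci 4.51% and 19.0% had an r with PYGM at least as far from 0 as these. GBE1 and PHKA1 had r = -0.85 and rho = -0.88 (-0.74 for deviations), and 0.314% of loci had an r with GBE1 at least as far from 0. Both genes also followed the fibre type lists, and the part of fibre type in this pair was not tested. GBE1 against PGM1 gave r = -0.74 (2.84% of loci at least as far from 0), against PYGM r = -0.78 (1.36%) and against PHKG1 r = -0.65 (7.49%). The pair of GBE1 and PHKG1 had rho = -0.83 (-0.78 for deviations). Without the 2 libraries farthest from the median on the first gene, GBE1 and PHKA1 kept -0.78 and PHKA1 and PHKG1 0.75, whereas GBE1 and PYGM gave -0.53. GYS1 and GYG1 each had an r between -0.34 and 0.30 with every other member in these 28 pairs, which leave out STBD1. For deviations from the group means GYG1 had stronger values, at -0.76 with PGM1, -0.70 with PYGM, -0.56 with PHKA1, -0.50 with PHKG1, 0.60 with UGP2 and 0.59 with GBE1, whereas those of GYS1 with the same genes ran from -0.42 to 0.28.

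**Figure D4:**
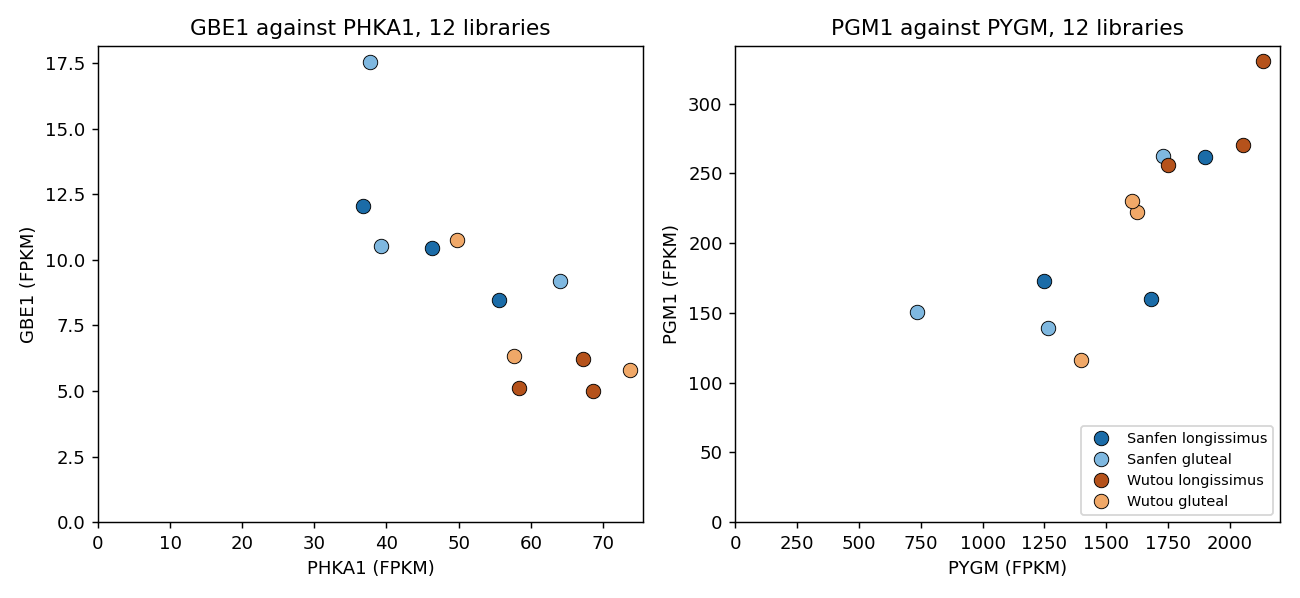
GBE1 against PHKA1 (left) and PGM1 against PYGM (right), in FPKM on both axes starting at 0, with 1 point per library coloured by group. GBE1 is lower where PHKA1 is higher (r = -0.85 on the log2 scale). The lowest GBE1 and the highest PYGM values are in Wutou longissimus libraries. Wutou gluteal replicate 3 (GBE1 5.81) and Sanfen longissimus replicate 3 (PYGM 1898) lie within the ranges of that group.

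STBD1 (MSTRG.1496), the glycogen-binding protein, had the largest differences of the 9 genes and the only pattern with separate levels. It measured 0.579, 0.263 and 0.770 FPKM in longissimus and 0.715, 17.8 and 18.1 in gluteal muscle of Sanfen donkeys. In Wutou it measured 12.9, 15.9 and 13.8 FPKM in longissimus and 0.518, 0.670 and 1.41 in gluteal muscle. Thus 5 libraries had 12.9 to 18.1 FPKM and 7 had 0.263 to 1.41, with nothing between: the lowest high value was 9.11 times the highest low value. The high libraries were all 3 of Wutou longissimus and 2 of 3 of Sanfen gluteal muscle, so the muscle with the higher level was opposite in the strains.

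In Wutou the longissimus mean of STBD1 was 14.2 ± 1.54 FPKM (SD, n = 3) and the gluteal mean 0.867 ± 0.479, with no overlap. On the log2(FPKM + 1) scale, which draws low values together, gluteal minus longissimus was -3.05 in Wutou (SE 0.71, unadjusted p 0.0011, limma adjusted p 0.870) and 2.48 in Sanfen (SE 0.71, unadjusted p 0.0045, limma adjusted p 1). The Sanfen muscles overlapped because gluteal replicate 1 was at the low level. Wutou minus Sanfen was 3.31 in longissimus muscle (SE 0.71, 95% interval 1.77 to 4.86, limma adjusted p 0.591) and -2.22 in gluteal muscle (SE 0.71, limma adjusted p 0.963), the latter moving to -3.37 without Sanfen gluteal replicate 1. The interaction, the difference between the muscle effects of the strains, was -5.53 (SE 1.0, 95% interval -7.72 to -3.35) and ranked 5 of 12408 loci by p (unadjusted p 0.000146, limma adjusted p 0.306).

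In the main fit STBD1 passed in no comparison, and whether it passed in other fits hung on 1 library. Sanfen gluteal replicate 1 is the only library at the other level from the rest of its group. Leaving it out puts each group wholly at the high or the low level, so the small p values that follow are no separate support. Without Sanfen gluteal replicate 1 the interaction was -6.69 with a limma adjusted p of 3.73e-06, and the adjusted p was 9.75e-05 between muscles in Sanfen, 0.000188 between muscles in Wutou, 8.03e-05 between strains in longissimus and 0.000211 between strains in gluteal muscle. All 4 groups share 1 estimate of the spread, so this library also enters comparisons of groups it does not belong to. With any other library left out the adjusted p stayed at 0.327 or more in these 5 comparisons. Fitted on only the 6 libraries compared, a choice made after seeing the data, the Wutou muscle difference had an adjusted p of 0.0116 and the longissimus strain difference one of 0.00204. Both of these fits also leave out Sanfen gluteal replicate 1. Under the other settings the adjusted p ran from 0.205 to 1. Sanfen gluteal replicate 1 is also the library with the most slow fibre marker RNA. The summed slow fibre markers were 2535 to 7725 FPKM in the 7 libraries with low STBD1 and 2736 to 4694 in the 5 with high STBD1. Over the 12 libraries STBD1 had r = -0.15 with the slow and 0.47 with the fast fibre list, and -0.72 and 0.72 for deviations from the group means. The part of fibre type in the levels of STBD1 was not tested.

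The loci next to STBD1 by locus number stayed below 1 FPKM in every library, too low to show whether they share its levels. CCDC158 stayed at 0.0186 to 0.141 FPKM and FAM47E, on its other side, at 0.101 to 0.521 in the 12 libraries. Separate levels are uncommon but not unique to STBD1: 44 of the 12408 tested loci, or 0.355%, had a gap of at least 2 on the log2(FPKM + 1) scale with at least 3 libraries on each side. No other locus split the libraries the same way or the exact opposite way. Of these 44 loci 34 were listed at exactly 0 in at least 1 library, whereas STBD1 was never listed at 0. A transcript count of 1 held for 86.4% of the 44 and for 46.7% of all tested loci, and STBD1 too has 1 transcript in the table. How far the levels come from the assembly or the estimate of the locus was not tested.

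**Figure D5:**
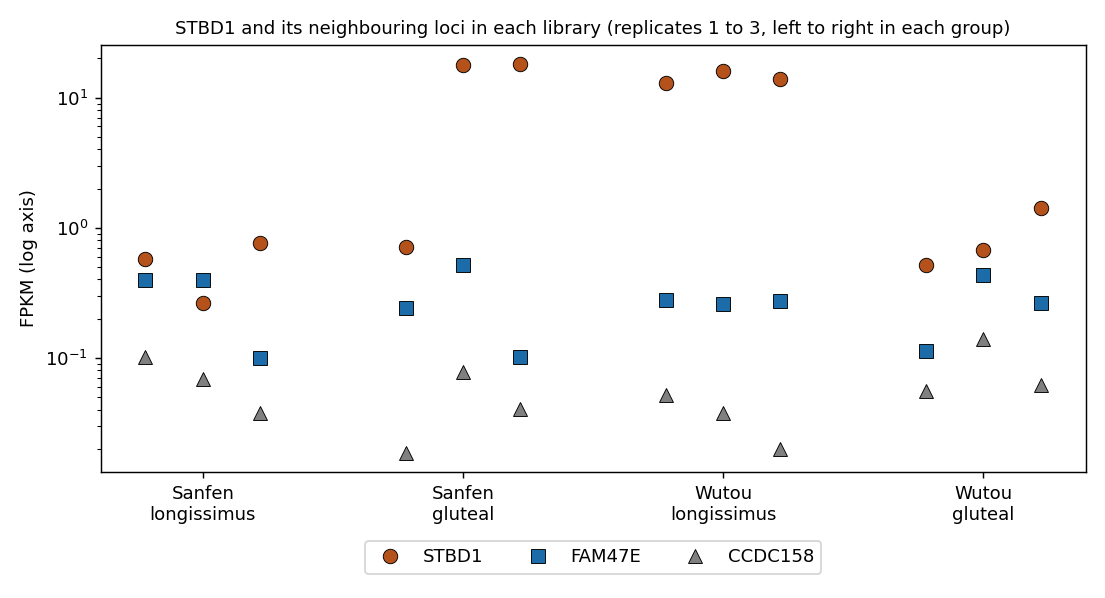
FPKM (log axis) of STBD1 and of the neighbouring loci FAM47E and CCDC158 in each of the 12 libraries, by group, with replicates 1 to 3 from left to right. STBD1 lies at 12.9 to 18.1 in 5 libraries and at 0.263 to 1.41 in 7. Both neighbours stay below 0.53 in every library, too low to show whether they share these levels.

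By direction alone, the members were divided between muscles. In Sanfen 6 of 9 had a higher estimate in gluteal muscle (67.6% of all loci did) and in Wutou 3 of 9 (58.6%), with medians of 0.03 and -0.16 on the log2 scale beside 0.08 and 0.05 for all loci. Between strains 6 of 9 were higher in Wutou in longissimus muscle (40.7% of loci) and 7 of 9 in gluteal muscle (34.2%), with medians of 0.31 and 0.08 beside -0.06 and -0.09. Averaged over muscles 7 of 9 were higher in Wutou (35.3%), averaged over strains 2 of 9 were higher in gluteal muscle (65.9%), and 4 of 9 had a positive interaction (45.4%). These tallies count differences of any size: 36 of the 63 were smaller than their SE, among them 7 of 9 in the Sanfen muscle comparison, all but PYGM and STBD1, and 7 of 9 in the interaction. No direction is read from those.

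Other genes of the pathway were read from 4 lists, and none passed the test in any comparison. The list of other glycogen enzymes and subunits had 11 of 15 genes tested. The phosphoglucomutase relative PGM5 was at -0.75 for Wutou against Sanfen in gluteal muscle (SE 0.26, limma adjusted p 0.963). PGM2, another phosphoglucomutase, was at 0.39 for gluteal against longissimus muscle in Wutou (SE 0.19, limma adjusted p 0.870).

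In the list of glycogen phosphatase subunits and quality control genes 10 of 13 were tested. PPP1R3C, a subunit that brings protein phosphatase 1 to glycogen, had the smallest p of all 4 lists. It measured 4.56, 4.38 and 31.3 FPKM in longissimus and 5.73, 6.37 and 5.89 in gluteal muscle of Sanfen donkeys, and 1.44, 1.06 and 0.806 in longissimus and 3.86, 2.97 and 5.002 in gluteal muscle of Wutou donkeys. All Wutou longissimus libraries lay below all others, an order whose share among all loci was not counted. Wutou minus Sanfen in longissimus muscle was -2.25 on the log2 scale (SE 0.53, unadjusted p 0.00127, limma adjusted p 0.757). Without Sanfen longissimus replicate 3, the library at 31.3 FPKM, the difference of these group means was -1.39. PPP1R3A, the muscle form of that subunit, ranged from 1.36 to 28.6 FPKM with high and low libraries in both strains. RBCK1, a ubiquitin ligase whose loss leads to abnormal glycogen in people, was at -0.43 for gluteal against longissimus muscle in Wutou (SE 0.15, limma adjusted p 0.870). NHLRC1, which encodes malin, was listed at 0 in 6 libraries and reached 2.56 FPKM in the rest.

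Among kinases and receptors upstream of synthase and phosphorylase 17 of 18 genes were tested. The smallest unadjusted p values were those of PRKAB1, IRS1 and PRKAA2. PRKAB1, a subunit of AMP-activated kinase, was at 0.37 for gluteal against longissimus muscle in Sanfen (SE 0.16, limma adjusted p 1). PRKAA2, its catalytic subunit, had an interaction of 1.18 (SE 0.58, limma adjusted p 0.9998). IRS1, an adaptor of the insulin receptor, had separate levels like STBD1, with 7.996 to 15.7 FPKM in 4 libraries and 0.274 to 1.17 in the other 8.

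Glucose uptake and phosphorylation was covered by 8 tested genes of 9. In longissimus muscle all 8 had a lower estimate in Wutou (median -0.30 on the log2 scale, beside 59.3% of all loci lower and a median of -0.06). In gluteal muscle 5 of 8 did (median -0.14, beside 65.8% of loci and -0.09). The 3 with the smallest p were the glucose transporters SLC2A3 and SLC2A1 and the hexokinase HK1. Averaged over muscles their differences between Wutou and Sanfen were -0.55 for SLC2A3 (SE 0.18), -0.47 for HK1 (SE 0.20) and -0.35 for SLC2A1 (SE 0.15), with limma adjusted p values of 0.793, 0.802 and 0.814. For SLC2A3 all 6 Wutou libraries (0.575 to 0.871 FPKM) lay below all 6 Sanfen libraries (0.964 to 2.62). These levels are close to the limit for testing, and the share of all loci separated in this way was not counted. SLC2A4, the insulin-responsive transporter of muscle, measured 5.70 to 30.7 FPKM, and its 2 extreme libraries were both Wutou gluteal. HK2, usually described as the main hexokinase of muscle, measured 0.868 to 6.25 FPKM and overlapped in all groups. In these libraries HK1 had the higher mean, 8.32 FPKM against 3.19 for HK2.

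The mean profile of the 9 members was most like that of 8 genes outside the list, with Pearson correlations over the 12 libraries of 0.81 to 0.84. These were SAAL1, PICK1, UBL7, LCMT1, TAF12, ACY1, LAMTOR3 and PFKM, the muscle phosphofructokinase, which averaged 374.6 FPKM. STBD1 weighs heavily in that profile, and without it the nearest genes were FBXL4, MRRF, JMJD1C, PHKB, RAB40C, CAPN3, GPD2 and PEBP4, at 0.80 to 0.87. PHKB, the kinase's beta subunit, was among these at 0.84.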

How the data were processed

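The authors deposited FPKM per locus in 1 table of 12 libraries. Per the submitters' processing notes cutadapt, Bowtie2 and TopHat2 were used, and versions, annotation and genome build are not given in the sources used here. Depth is unknown: steps between low FPKM values gave no usable estimate, so no counting error is given. Of 6333 rows named LOC, 3260 matched RefSeq (assembly EquAss-T2T_v2), used for names only. The neighbours of STBD1 were taken by adjacent locus number.

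Tests used limma 3.58.1 (R 4.3.3) on log2(FPKM + 1) with a pseudocount of 1, 1 model over 4 groups and 12 libraries, trend-moderated variances and Benjamini-Hochberg adjustment over 12408 loci reaching 1 FPKM in 3 or more libraries. The strain comparison averaged over muscles had a random block of strain and number (statmod 1.5.0, consensus correlation 0.188). The model was tested on simulated data. Replicate numbers were checked as pairs of muscles: same-numbered deviations from group means correlated at 0.246, 0.110 and 0.158 in Sanfen, all above the limit of 0.1, and at 0.182, 0.165 and 0.0711 in Wutou. Different-numbered ones ran from -0.149 to -0.000829 in Sanfen and from -0.169 to 0.0126 in Wutou. This pairing comes from the values, not the labels. The main muscle and interaction tests had no replicate block.

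The members and lists were chosen with earlier results of these data known. All members are named. From each other list up to 3 genes with the smallest p are named, and PPP1R3A, PPP1R3C, SLC2A4 and HK2 always; some genes that this rule names are not reported here. Likeness used the 8 named loci with the highest Pearson correlation. Tried as alternatives were no filter, a pseudocount of 0.1, a limit of 5 FPKM, median-of-ratios rescaling, array weights, the replicate block, FPKM summed over loci of a name, unadjusted p, each library left out and, chosen after seeing the data, only the 6 libraries compared. Tables were made with pandas 2.3.3, numpy 2.4.6 and scipy 1.17.1, and figures with matplotlib 3.10.9 (Python 3.11.15).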

Additional observations from a re-analysis of the deposited data

How the results depend on the processing

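The count of 0 glycogen genes past the threshold held in all 7 comparisons with another pseudocount, filter, rescaling, array weights and summed loci. The replicate block also gave 0 in the 3 muscle comparisons and the interaction, as did no replicate block for the strains averaged over muscles. None was run for the strains within 1 muscle. It became 1 (STBD1) with only the 6 libraries compared, between muscles in Wutou and between strains in longissimus muscle. With 1 library left out it ran from 0 to 1 in the 5 comparisons without averaging and was 0 in the averaged ones, the 1 being STBD1 without Sanfen gluteal replicate 1. Unadjusted p gave 1 between muscles in either strain, 2 between strains in either muscle, 1 averaged over muscles and 1 for the interaction. Of 27 differences of a member larger than their SE, 0 of 546 refits changed sign. Of the 36 smaller ones, 72 of 731 refits did, so the tallies of direction in the report say nothing of these members singly.

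Counts over all tested loci were small and moved. Between muscles in Sanfen 3 loci became 1 (limit of 5 FPKM; replicate block), 5 (no filter; pseudocount 0.1), 443 (unadjusted p) or 0 to 5 (1 library left out). In Wutou 0 became 3 (array weights), 2 (rescaling), 1 (6 libraries), 705 (unadjusted p) or 0 to 2. Averaged over strains 0 became 1 (no filter), 814 (unadjusted p) or 0 to 4. Between strains in longissimus muscle 2 became 4 (array weights; no filter), 0 (limit of 5 FPKM), 7 (6 libraries), 6 (pseudocount 0.1), 685 (unadjusted p) or 0 to 6. In gluteal muscle 1 became 0 (limit of 5 FPKM; rescaling; pseudocount 0.1), 3 (6 libraries), 603 (unadjusted p) or 0 to 3. Averaged over muscles 0 became 1 (no filter), 741 (unadjusted p) or 0 to 1, and the interaction went from 1 to 0 (limit of 5 FPKM), 2 (rescaling; no filter), 322 (unadjusted p) or 1 to 5. The causes were not tested. The unknown depth limits what can be said of GBE1, PHKG1 and the low level of STBD1.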
